A study of Mus musculus with 15 samples.

Results

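The genes described here are the 35 members of a list covering glucose uptake, glycolysis, lactate handling, entry of pyruvate into the mitochondrion, the mitochondrial glycerol phosphate shuttle and the pentose phosphate pathway, out of 23284 entries in the expression table. Members were taken by gene symbol: 34 stood under the listed symbol, and Pkm stood under its older symbol Pkm2. RNA was sequenced from sorted CD8 T cells of OT-I mice, whose transgenic T cell receptor recognises an ovalbumin peptide. Cells were stimulated by dendritic cells carrying that peptide, which were grown from bone marrow, and kept in culture for 14 days. The cocktail culture received IL-7, IL-21, TWS119 (an inhibitor of glycogen synthase kinase 3) and 2-deoxyglucose, a glucose analogue that blocks glycolysis, and gave 3 sorted populations: CD44loCD62L+, CD44+CD62L+ and CD44+CD62L-. The IL-2 culture gave 1 population, CD44+CD62L-. The fifth population was naive OT-I cells at day 0, which one label calls CD44loCD62L+ and the design text calls CD44-CD62L+. CD44 is high on activated and memory T cells, and CD62L is a lymph node homing receptor of naive and central memory cells. Each population had 3 libraries, which the design text calls technical replicates, so every p-value below measures the spread between libraries of the same RNA and not the spread between animals or cultures. Neither the age of the mice nor any pooling of animals is given in those labels.

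Glycolysis splits glucose into pyruvate in the cytosol, and lactate dehydrogenase then reduces pyruvate to lactate, which leaves the cell through monocarboxylate transporters. Pyruvate can instead enter the mitochondrion and be oxidised by pyruvate dehydrogenase, which the pyruvate dehydrogenase kinases switch off by phosphorylation. The pentose phosphate pathway branches off at glucose 6-phosphate, makes NADPH in its oxidative steps and exchanges sugars with glycolysis in its non-oxidative steps. Naive T cells run mostly on mitochondrial respiration, activated T cells turn to rapid glycolysis with lactate release, and memory T cells are known for a lower glycolytic rate. 2-deoxyglucose is phosphorylated by hexokinase to a product that accumulates and inhibits the first steps of glycolysis.

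Levels are normalized FPKM, fragment counts scaled for transcript length and library size, as deposited, so they are relative within a library and can be set side by side between genes. The FPKM of a library summed to between 669341 and 781949. Read depth was not estimated, so no counting error is given. The median coefficient of variation of members at 5 FPKM or more ranged from 0.886% to 1.54% over the 5 groups. The 8 T cell markers summed to 2936 to 2939 FPKM in the CD44loCD62L+, 2667 to 2673 FPKM in the CD44+CD62L+ and 2867 to 2875 FPKM in the CD44+CD62L- cocktail libraries, 2383 to 2407 FPKM in the IL-2 libraries and 3887 to 3900.2 FPKM in the naive libraries. The 5 B cell markers summed to 2.72 to 3.06, 2.29 to 2.49 and 2.05 to 2.32 FPKM in the cocktail CD44loCD62L+, CD44+CD62L+ and CD44+CD62L- libraries. Their sum was 5.93 to 6.75 FPKM in the IL-2 libraries and 39.0 to 40.4 FPKM in the naive libraries. Of these markers Ms4a1 and Pax5 were listed at 0 in all cultured libraries. Some genes that every cell uses are listed at 0 in this table (Eef1a1 in all 15 libraries), so a 0 here can be a failed estimate.

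The members took up a far larger part of the transcriptome in all 4 cultured populations than in naive cells, and a larger part in the cocktail cells than in the IL-2 cells. Their summed FPKM made up 2.13 ± 0.0410%, 2.21 ± 0.0292% and 2.23 ± 0.0124% of all FPKM in the cocktail CD44loCD62L+, CD44+CD62L+ and CD44+CD62L- libraries, 1.67 ± 0.0439% in the IL-2 libraries and 0.331 ± 0.0105% in the naive libraries (mean ± SD, n = 3 libraries each, as throughout). In bulk RNA, fewer cells expressing a gene and less RNA per cell cannot be told apart. Gapdh, the glyceraldehyde phosphate dehydrogenase, was the highest member in every group, at 4553 ± 12.3, 4692 ± 12.6 and 4782 ± 15.5 FPKM in the cocktail CD44loCD62L+, CD44+CD62L+ and CD44+CD62L- libraries, 3172 ± 11.5 FPKM in the IL-2 libraries and 454 ± 1.92 FPKM in the naive libraries. The neuronal enolase gene Eno2 was the lowest member in every group, and its highest mean was 0.977 ± 0.0572 FPKM in the cocktail CD44loCD62L+ libraries. It did not reach a group mean of 1 FPKM in any group and was not tested; the other 34 members were.

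For 15 of the 34 members tested, including most of the glycolytic chain, all 9 cocktail libraries stood above all 3 IL-2 libraries and these above all 3 naive libraries: the glucose transporters Slc2a1 and Slc2a3, the glycolytic enzymes Hk1, Gpi1, Pfkl, Pfkm, Pfkp, Aldoa, Aldoc, Tpi1, Gapdh, Pgk1, Eno1 and Pkm, and the lactate exporter Slc16a3. Of all 11242 genes tested, 6.14% had this order. For 11 members all 3 IL-2 libraries stood above the other 12, a share near the 28.5% of all genes tested: Hk2, Bpgm, Ldha, Slc16a1, Pdk3, Gpd2 and the pentose phosphate enzymes G6pdx, Pgls, Pgd, Tkt and Taldo1. For 4 members, Pfkfb4, Eno3, Ldhb and Pdk2, all 3 naive libraries stood above the other 12, against 33.1% of all genes tested. Pfkfb3, Pgam1, Pdk1 and Pdha1 followed none of these orders.

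**Figure D1:**
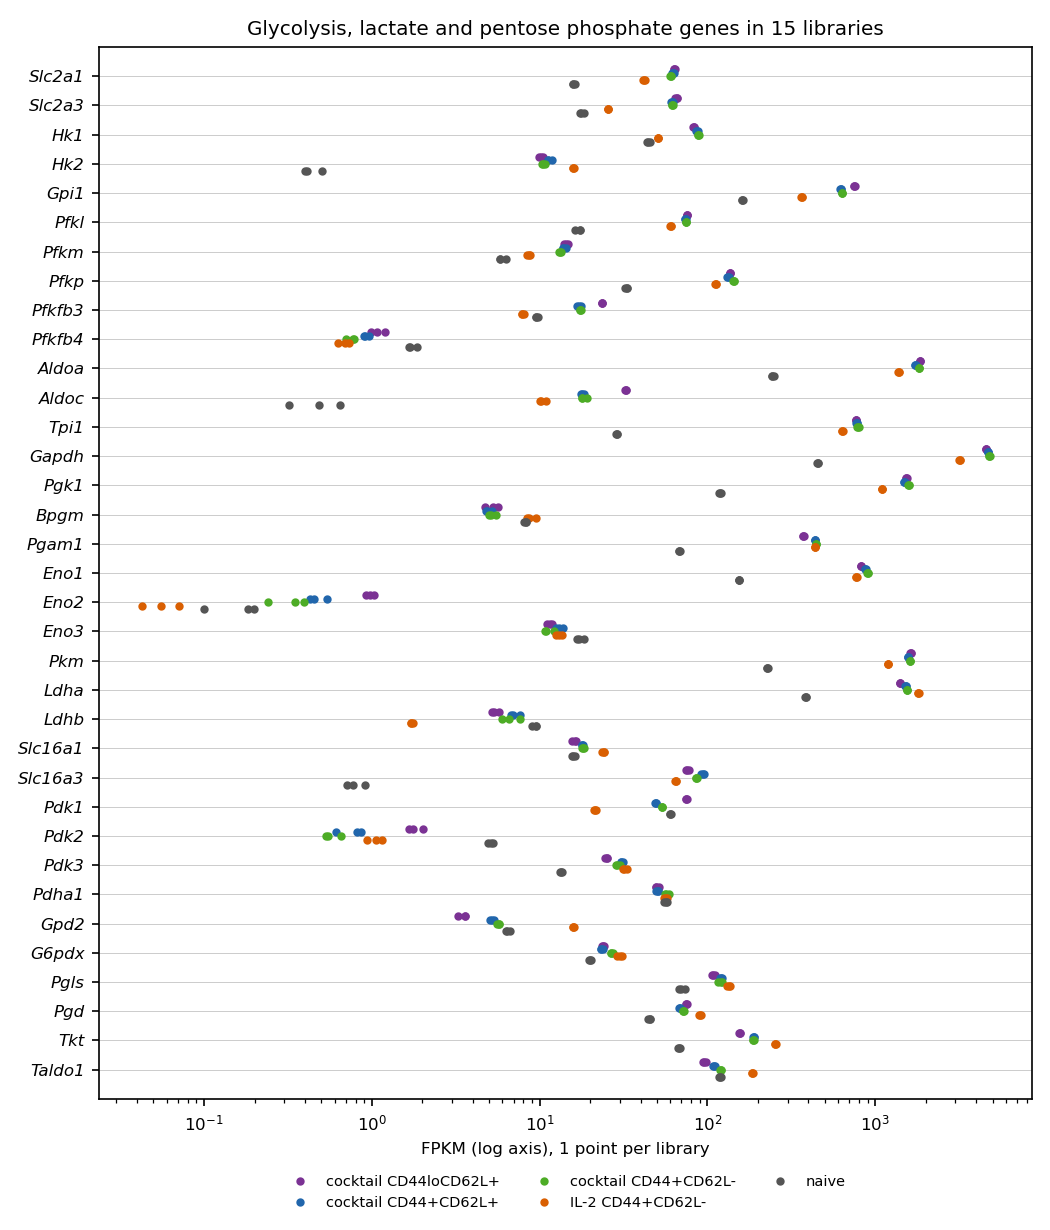
FPKM (log axis) of the 35 members in the 15 libraries, 1 point per library, coloured by population. Gapdh is the highest member in every population, and Slc16a3, Tpi1, Hk2 and Aldoc show the widest distance between naive and cultured libraries.

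Against naive cells, nearly the whole glycolytic chain was higher in every cultured population, and these 4 comparisons share the naive libraries. A member counted as called where limma gave an adjusted p under 0.05 over all genes tested and the fold change was at least 2 on the log2(FPKM + 1) scale, where changes of genes with low levels come out too small. In the cocktail CD44loCD62L+ cells 19 of 34 members rose, against 11.6% of all genes, and 1 fell, against 6.11%. In the cocktail CD44+CD62L+ cells 19 rose (14.4% of all genes) and 1 fell (8.44%), and in the cocktail CD44+CD62L- cells 19 rose (13.9%) and 1 fell (8.59%). In the IL-2 cells 18 rose (17.6%) and 3 fell (13.7%). The members' median log2 fold change over naive cells was 1.20, 1.30, 1.26 and 1.17 in the cocktail CD44loCD62L+, CD44+CD62L+, CD44+CD62L- and IL-2 cells, where the median of all genes tested lay between -0.02 and 0.02. By the adjusted p of limma alone, 25 members were higher (43.2% of all genes) and 8 lower (45.4%) in the cocktail CD44loCD62L+ cells, 25 members were higher (45.2% of all genes) and 9 lower (45.5%) in the cocktail CD44+CD62L+ cells, 25 members were higher (45.1% of all genes) and 7 lower (45.5%) in the cocktail CD44+CD62L- cells and 26 higher (46.9%) and 6 lower (44.9%) in the IL-2 cells. The 12 proliferation genes of a separate list summed to 707 to 708, 1841 to 1854 and 1538 to 1542 FPKM in the cocktail CD44loCD62L+, CD44+CD62L+ and CD44+CD62L- libraries, 1893 to 1899 FPKM in the IL-2 libraries and 212 to 217 FPKM in the naive libraries, and their part in these differences was not tested.

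Counted as summed FPKM per step, and leaving out the side enzymes Bpgm, Pfkfb3 and Pfkfb4, the steps up to phosphofructokinase were 1.49 to 4.65 times the naive level and those from aldolase to pyruvate kinase 4.58 to 27.3 times, over the 4 populations. Slc2a1, the main glucose transporter of activated T cells, was called higher in all 4 populations, with log2 fold changes of 1.93, 1.90 and 1.86 in the cocktail CD44loCD62L+, CD44+CD62L+ and CD44+CD62L- cells and 1.34 in the IL-2 cells. Slc2a3, a high-affinity glucose transporter, was called in the 3 cocktail populations (1.82, 1.73 and 1.74), while its value in the IL-2 cells was 0.50. Gpi1, the isomerase behind hexokinase, was called in all 4 (2.21, 1.94, 1.97 and 1.17 with IL-2 last). Hk1, the constitutive hexokinase, stayed under the 2-fold minimum everywhere. Hk2, the inducible hexokinase, had 10.2, 9.94 and 10.4 FPKM in the cocktail CD44loCD62L+ libraries, 11.8, 11.2 and 11.3 FPKM in the CD44+CD62L+ libraries and 10.7, 10.5 and 10.3 FPKM in the CD44+CD62L- libraries. It had 15.8, 16.1 and 15.8 FPKM in the IL-2 libraries, against 0.399, 0.412 and 0.506 FPKM in the naive libraries. No cultured library of Hk2 came near a naive library, and the IL-2 libraries were the highest (limma in IL-2 cells, log2 fold change 3.55 ± 0.0311, adjusted p = 8.35e-19). Of the phosphofructokinase genes, which encode the committed step, Pfkl and Pfkp were called higher in all 4 populations and Pfkm in the 3 cocktail populations, with the call of Pfkm in the CD44+CD62L- cells at a log2 fold change of 1.03. Pfkfb3, whose product activates phosphofructokinase, was called in the cocktail CD44loCD62L+ cells (1.22) and was 0.79, 0.81 and -0.24 in the cocktail CD44+CD62L+, CD44+CD62L- and IL-2 cells, and its relative Pfkfb4 was called in none. Pfkfb4, a gene of low level, fell with a pseudocount of 0.1 in the cocktail CD44+CD62L- cells (-1.12) and in the IL-2 cells (-1.23).

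Of these step totals from aldolase on, those of triosephosphate isomerase and phosphoglycerate kinase lay farthest from naive cells. Tpi1, triosephosphate isomerase (GRCm38 chromosome 6, 124810586 to 124814296), had 769, 763 and 768 FPKM in the cocktail CD44loCD62L+ libraries, 774, 776 and 773 FPKM in the CD44+CD62L+ libraries and 783, 797 and 785 FPKM in the CD44+CD62L- libraries. It had 637, 635 and 639 FPKM in the IL-2 libraries, against 28.4, 29.0 and 29.1 FPKM in the naive libraries. The means of the cultured populations were 26.6, 26.8, 27.3 and 22.1 times the naive mean in the cocktail CD44loCD62L+, CD44+CD62L+, CD44+CD62L- and IL-2 cells, the smallest log2 fold change being 4.42 ± 0.00868 in the IL-2 cells (limma, adjusted p = 6.22e-25). Pgk1, the first ATP-forming enzyme of the pathway, had 1578, 1595 and 1581 FPKM in the cocktail CD44+CD62L- libraries and 1094, 1096 and 1094 FPKM in the IL-2 libraries, against 116, 118 and 119.9 FPKM in the naive libraries. It was called higher in all 4 populations, and the libraries of the 3 groups did not overlap. Aldoc, the brain-type aldolase, had 32.1, 32.5 and 32.7 FPKM in the cocktail CD44loCD62L+ libraries, against 0.487, 0.319 and 0.644 FPKM in the naive libraries (limma, log2 fold change 4.50 ± 0.0608, adjusted p = 1.66e-16). Aldoa, Gapdh, Pgam1, Eno1 and Pkm were each called higher in all 4 populations, with log2 fold changes between 2.32 (Eno1 in IL-2 cells) and 3.40 (Gapdh in cocktail CD44+CD62L- cells). Reads of Eno1 may be split with its near-identical copy Gm5506, which stood at 579.8 FPKM in the cocktail CD44+CD62L- libraries, 486 FPKM in the IL-2 libraries and 101 FPKM in the naive libraries, so the values of Eno1 are uncertain. Gapdh, Pgk1, Ldha, Tpi1 and other members of this chain have processed pseudogenes, and how reads were shared with them is not given in the sources used here. Bpgm, which makes the side product 2,3-bisphosphoglycerate, and the muscle enolase Eno3 were called in no population.

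The lactate exporter Slc16a3 had the largest fold change of the 34 members in each of the 4 comparisons. Slc16a3, the monocarboxylate transporter of highly glycolytic cells (GRCm38 chromosome 11, 120948480 to 120960868), had 74.1, 75.9 and 77.1 FPKM in the cocktail CD44loCD62L+ libraries, 94.9, 93.7 and 91.8 FPKM in the CD44+CD62L+ libraries and 85.5, 86.0 and 86.3 FPKM in the CD44+CD62L- libraries. It had 64.8, 64.1 and 65.3 FPKM in the IL-2 libraries, against 0.913, 0.777 and 0.707 FPKM in the naive libraries. Every naive library stood under 1 FPKM and every cultured library at 64.1 FPKM or more. The log2 fold changes were 5.42, 5.72, 5.60 and 5.19 in the cocktail CD44loCD62L+, CD44+CD62L+, CD44+CD62L- and IL-2 cells (limma, adjusted p = 2.11e-20 in the IL-2 cells). Slc16a1, the more widely expressed transporter of the same family, was called in none of the 4 populations. Ldha, the lactate dehydrogenase form that favours lactate formation, was called higher in all 4, by 1.86 to 2.22 on the log2 scale. Ldhb, the form that favours oxidation of lactate, fell in the IL-2 cells (limma, log2 fold change -1.92 ± 0.0646, adjusted p = 1.72e-12) and was -0.69, -0.36 and -0.42 in the cocktail CD44loCD62L+, CD44+CD62L+ and CD44+CD62L- cells.

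At the pyruvate branch point the 3 pyruvate dehydrogenase kinases differed in direction, and in the pentose phosphate pathway transketolase alone passed the fold minimum. Pdk2, a pyruvate dehydrogenase kinase, had 1.67, 1.77 and 2.02 FPKM in the cocktail CD44loCD62L+ libraries, 0.552, 0.530 and 0.659 FPKM in the cocktail CD44+CD62L- libraries and 0.934, 1.15 and 1.06 FPKM in the IL-2 libraries, against 5.24, 5.16 and 4.95 FPKM in the naive libraries. It was the member that fell in all 4 populations. Pdk1, of the same family, fell in the IL-2 cells (-1.44) and Pdk3 rose in the cocktail CD44+CD62L+, cocktail CD44+CD62L- and IL-2 cells (1.13, 1.06 and 1.20). Pdha1, a subunit of pyruvate dehydrogenase itself, lay between -0.17 and 0.03 in the 4 comparisons. Gpd2, which passes electrons of glycolytic NADH into the respiratory chain, rose in the IL-2 cells (1.18) and was -0.74, -0.27 and -0.16 in the cocktail CD44loCD62L+, CD44+CD62L+ and CD44+CD62L- cells. Tkt, transketolase, was called in all 4 populations (log2 fold changes 1.19, 1.47, 1.46 and 1.89 in the same order, IL-2 last). Pgd, the NADPH-forming 6-phosphogluconate dehydrogenase, reached 0.998 in the IL-2 cells, just under the minimum of 1, and passed it without replicate 2 of the IL-2 libraries (1.006) and without replicate 1 or 3 of the naive libraries (1.005 and 1.005). The oxidative enzymes G6pdx and Pgls and the transaldolase Taldo1 lay between -0.31 (Taldo1 in cocktail CD44loCD62L+ cells) and 0.92 (Pgls in IL-2 cells).

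**Figure D2:**
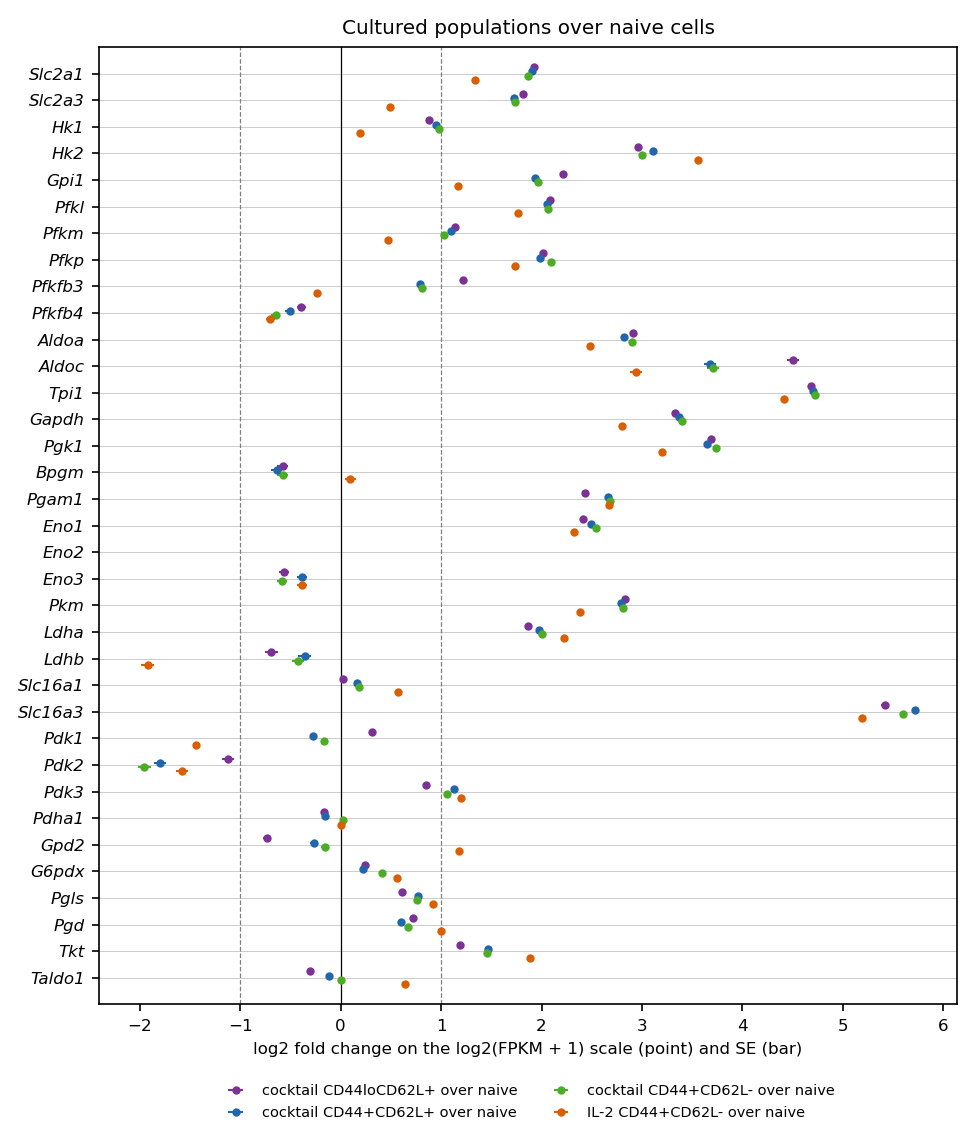
Log2 fold change over naive cells on the log2(FPKM + 1) scale (points) with its standard error (bars) for the 34 members tested, in 3 cocktail populations and the IL-2 population. Dashed lines mark the 2-fold minimum. Slc16a3 and Tpi1 lie farthest to the right in every population, and Ldhb, Pdk1 and Gpd2 have the IL-2 point far from the cocktail points.

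The cultures were next compared at the same gate, CD44+CD62L-, where the labels differ only in what was added to the medium. Of 34 members, 4 rose in the cocktail cells relative to the IL-2 cells, against 4.64% of all genes tested, and 1 fell, against 3.20% of all genes. The 4 that rose were Ldhb, Pdk1, Slc2a3 and Pfkfb3, and the 1 that fell was Gpd2. The median log2 fold change was 0.26 over the members and -0.01 over all genes tested. Without the fold minimum 18 members passed the adjusted p as higher and 13 as lower, against 40.6% and 43.7% of all genes.

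Ldhb (GRCm38 chromosome 6, 142490249 to 142507957) had 5.98, 6.59 and 7.65 FPKM in the cocktail CD44+CD62L- libraries, against 1.71, 1.71 and 1.77 FPKM in the IL-2 libraries (limma, log2 fold change 1.5 ± 0.0646, adjusted p = 7.13e-11). The groups were far apart although Ldhb had the widest spread of the called members within the cocktail group, and all 3 naive libraries stood higher still, at 9.54, 9.51 and 9.01 FPKM. Slc2a3 had 61.3, 62.7 and 61.5 FPKM in the cocktail CD44+CD62L- libraries, against 25.5, 25.7 and 25.6 FPKM in the IL-2 libraries (limma, log2 fold change 1.24 ± 0.0186, adjusted p = 1.29e-15). In the cocktail libraries Slc2a1 had a similar level, 60.5 ± 0.502 FPKM, whereas in the IL-2 libraries Slc2a1 stood at 41.9 ± 0.490 FPKM, above Slc2a3. Pfkfb3, which makes fructose 2,6-bisphosphate, the strongest activator of phosphofructokinase, had 17.7, 17.4 and 17.4 FPKM in the cocktail CD44+CD62L- libraries, against 7.89, 7.86 and 8.11 FPKM in the IL-2 libraries (limma, log2 fold change 1.05 ± 0.0204, adjusted p = 1.87e-14). The naive libraries of Pfkfb3 lay between these groups, at 9.45, 9.46 and 9.72 FPKM. Pdk1, which holds pyruvate dehydrogenase inactive, had 53.4, 53.6 and 53.3 FPKM in the cocktail CD44+CD62L- libraries, against 21.1, 21.4 and 21.7 FPKM in the IL-2 libraries (limma, log2 fold change 1.28 ± 0.0128, adjusted p = 2.48e-17). Its naive libraries were higher than both, at 60.9, 59.5 and 59.5 FPKM. Gpd2 (GRCm38 chromosome 2, 57237635 to 57370719) had 5.73, 5.75 and 5.57 FPKM in the cocktail CD44+CD62L- libraries, against 15.9, 15.7 and 16.0 FPKM in the IL-2 libraries (limma, log2 fold change -1.34 ± 0.0327, adjusted p = 1.92e-13). The IL-2 libraries of Gpd2 were the highest of all 15, and the naive libraries, at 6.28, 6.40 and 6.70 FPKM, stood just above the cocktail libraries.

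Below the 2-fold minimum, the summed glycolytic enzymes were higher and the summed pentose phosphate enzymes lower in the cocktail cells. The 16 genes from hexokinase to pyruvate kinase summed to 12926 ± 16.3 FPKM in the cocktail CD44+CD62L- libraries, against 9318 ± 20.6 FPKM in the IL-2 libraries. Genes of high level weigh most in such a sum, and Gapdh alone held 4782 ± 15.5 and 3172 ± 11.5 FPKM of it. The 5 pentose phosphate genes summed to 526 ± 5.68 FPKM in the cocktail CD44+CD62L- libraries, against 693 ± 2.50 FPKM in the IL-2 libraries. The ratio of these sums within a library does not depend on how libraries are scaled to each other: it was 27.6 ± 0.255, 24.6 ± 0.205 and 24.6 ± 0.239 in the cocktail CD44loCD62L+, CD44+CD62L+ and CD44+CD62L- libraries, 13.4 ± 0.0777 in the IL-2 libraries and 4.89 ± 0.0274 in the naive libraries. Among single enzymes the glucose-6-phosphate isomerase Gpi1 (0.80), Hk1 (0.79), Aldoc (0.76), Gapdh (0.59), Pfkm (0.56) and Pgk1 (0.53) had the highest log2 fold changes of this chain in the cocktail cells. Pkm (0.43), Aldoa (0.41), Pfkp (0.36), Tpi1 (0.31), Pfkl (0.30) and Eno1 (0.22) followed, beside the transporters Slc2a1 (0.52) and Slc16a3 (0.40). Hk2 (-0.56), Bpgm (-0.67), the lactate dehydrogenase Ldha (-0.22), the transporter Slc16a1 (-0.39), Pdk2 (-0.37), Eno3 (-0.20) and Pdk3 (-0.13) had negative ones. The 5 pentose phosphate genes were all lower, with Taldo1 (transaldolase) at -0.63, Tkt at -0.43 and Pgd at -0.33. Pgls (6-phosphogluconolactonase) was at -0.16 and G6pdx, the entry enzyme glucose-6-phosphate dehydrogenase, at -0.15. All 5 were past the adjusted p of limma, where 43.7% of all genes were lower, and short of the fold minimum. The sign of Pgls turned under quantile normalization. Pgam1, Pfkfb4 and Pdha1 did not pass the adjusted p, at log2 fold changes of 0.01, 0.05 and 0.02.

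**Figure D3:**
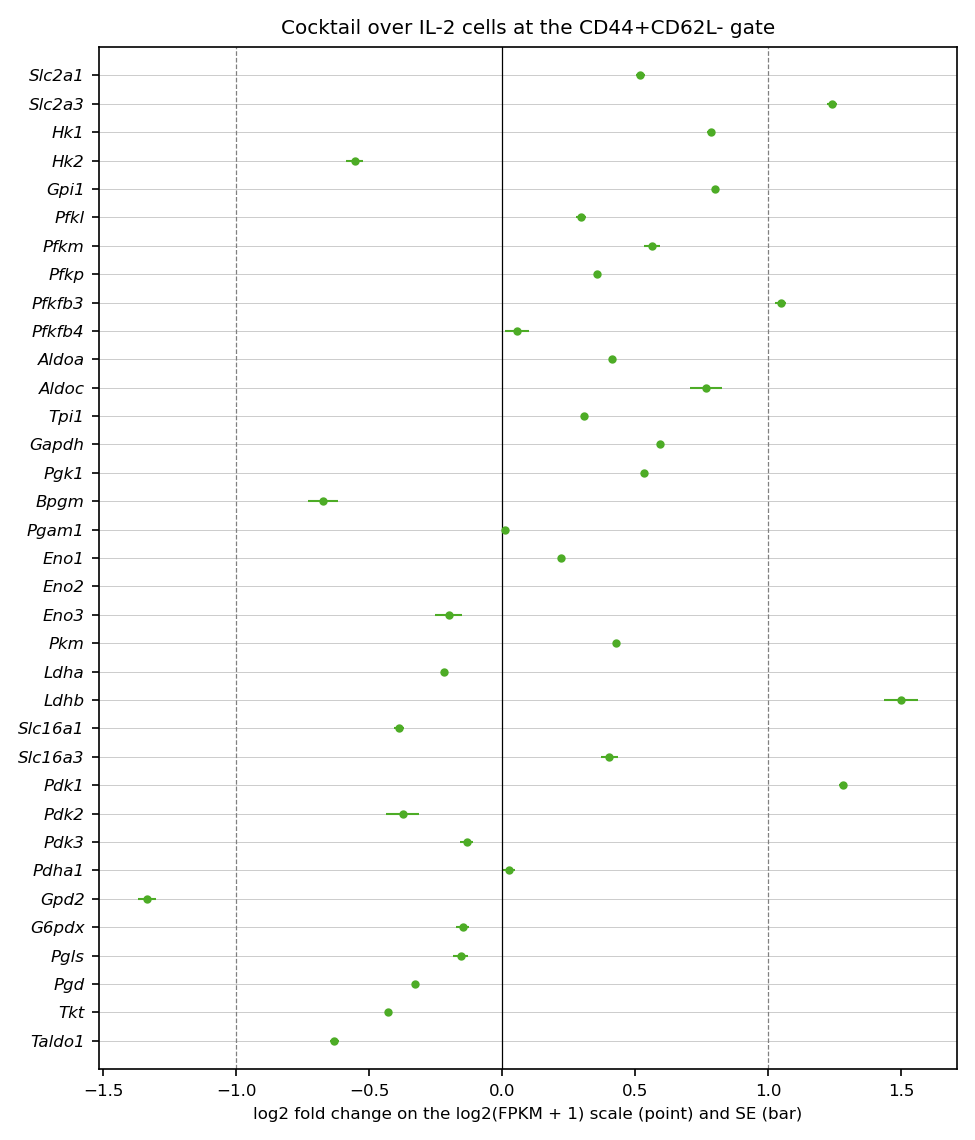
Log2 fold change of cocktail CD44+CD62L- over IL-2 CD44+CD62L- cells on the log2(FPKM + 1) scale (points) with its standard error (bars) for the 34 members tested; dashed lines mark the 2-fold minimum. Ldhb, Pdk1, Slc2a3 and Pfkfb3 lie beyond the right line and Gpd2 beyond the left one.

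Several steps are encoded by more than one gene. Between the cultures at CD44+CD62L-, the 9 shares compared differed by 0.217 (Pfkp) to 25.0 percentage points (Pdk1) in size. With 3 libraries against 3, the smallest p an exact two-sided permutation test can give is 0.1. Hk2 made up 10.6 ± 0.211% of hexokinase FPKM (Hk1 and Hk2) in the cocktail CD44+CD62L- libraries, against 23.9 ± 0.238% in the IL-2 libraries, a difference of -13.2 percentage points. In naive libraries Hk2 was 0.979 ± 0.139%. The summed hexokinase level was meanwhile 98.7 ± 0.736 FPKM in the cocktail CD44+CD62L- libraries, against 66.6 ± 0.239 FPKM in the IL-2 libraries, so the higher total in the cocktail cells was carried by Hk1. Slc2a1 made up 49.4 ± 0.389% of glucose transporter FPKM (Slc2a1 and Slc2a3) in the cocktail CD44+CD62L- libraries, against 62.1 ± 0.163% in the IL-2 libraries. Pdk1 made up 64.2 ± 0.586% of kinase FPKM (Pdk1, Pdk2 and Pdk3) in the cocktail CD44+CD62L- libraries, against 39.2 ± 0.481% in the IL-2 libraries, the widest difference of the 9 shares compared, 25.0 percentage points. Slc16a3 made up 82.6 ± 0.302% of lactate transporter FPKM in the cocktail CD44+CD62L- libraries, 73.0 ± 0.342% in the IL-2 libraries and 4.79 ± 0.511% in the naive libraries. Ldhb was a minor form everywhere, at 0.433 ± 0.0545% of lactate dehydrogenase FPKM in the cocktail CD44+CD62L- libraries, 0.0959 ± 0.00113% in the IL-2 libraries and 2.37 ± 0.0815% in the naive libraries. In 8 of the 9 shares the cocktail CD44+CD62L- and IL-2 libraries did not overlap (exact permutation p = 0.1 each, which cannot pass 0.05). The exception was Pfkp, the platelet-type phosphofructokinase, at 62.1 ± 0.264% in the cocktail CD44+CD62L- libraries and 61.9 ± 0.221% in the IL-2 libraries (exact permutation p = 0.5). The libraries of 33 of the 35 members did not overlap in this comparison, and the share of all genes that did not overlap was not counted. By the adjusted p of limma alone 40.6% of all genes were higher and 43.7% lower.

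**Figure D4:**
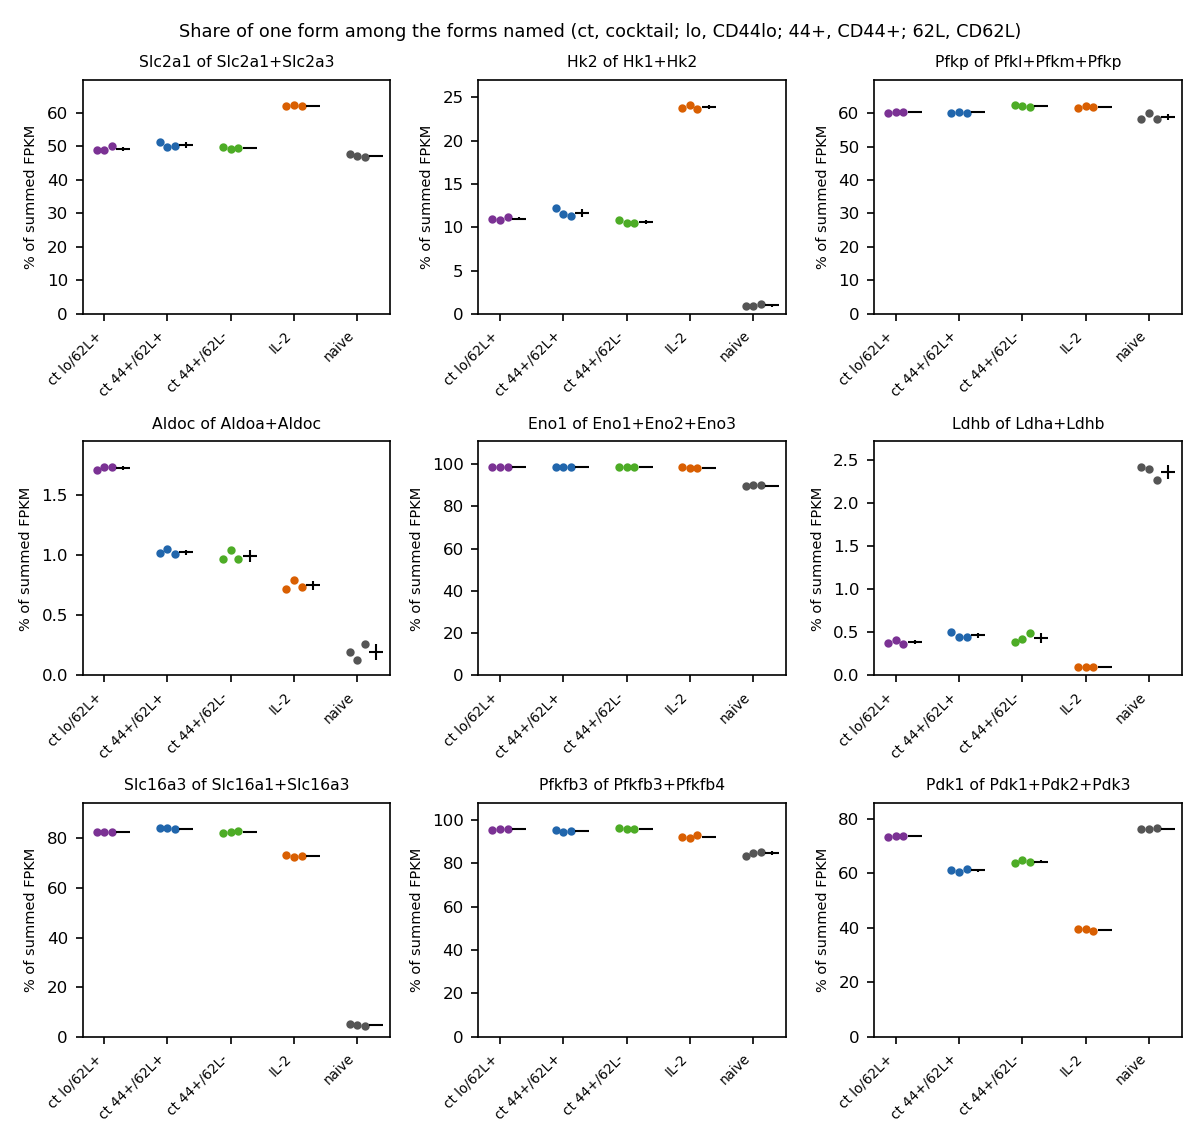
Share of 1 form in the summed FPKM of the forms named above each panel, in percent, for 15 libraries (points), with the mean (line) and SD (bar) of each population. The IL-2 points stand apart from the cocktail points for Slc2a1, Hk2, Ldhb, Slc16a3 and Pdk1, and lie among them for Pfkp.

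Within the cocktail culture no member was called between neighbouring gates, and few of all genes tested were. Between CD44+CD62L+ and CD44+CD62L- cells 0 of 34 members were called, against 0.0356% of all genes called higher and 0.0801% called lower, and log2 fold changes ran from -0.20 (G6pdx) to 0.20 (Eno3). By the adjusted p of limma alone, 5 members were higher and 15 lower, against 24.1% and 24.3% of all genes. For 11 of the 34 members the libraries of these gates overlapped, and the share of all genes that overlapped was not counted. The signs of Tpi1, Eno1, Pkm and Ldha, whose log2 fold changes were all -0.03 to -0.05, turned under quantile normalization.

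CD44loCD62L+ cells differed more from CD44+CD62L+ cells, although again 0 of 34 members were called, against 0.418% of all genes called higher and 2.26% called lower. By the adjusted p of limma alone 12 members were higher and 15 lower, against 36.5% and 36.9% of all genes. Among these members the signs of Hk1 and Pkm turned under quantile normalization. Aldoc had 32.1, 32.5 and 32.7 FPKM in the CD44loCD62L+ libraries, against 17.8, 18.3 and 17.6 FPKM in the CD44+CD62L+ libraries (limma, log2 fold change 0.82 ± 0.0608, adjusted p = 4.44e-08). Pdk1 had 74.3, 74.2 and 75.5 FPKM in the CD44loCD62L+ libraries, against 49.1, 49.0 and 49.5 FPKM in the CD44+CD62L+ libraries (limma, log2 fold change 0.59 ± 0.0128, adjusted p = 1.22e-13). In both genes the libraries of the gates stood apart, and the CD44loCD62L+ libraries were the highest of all 15. Pfkfb3 (0.43) and Gpi1 (0.27) followed. Pdk2 (0.68), between Aldoc and Pdk1 on this scale, had the widest ratio of means: it was at 1.82 ± 0.178 FPKM in the CD44loCD62L+ libraries, against 0.764 ± 0.133 FPKM in the CD44+CD62L+ libraries, and passed the 2-fold minimum with a pseudocount of 0.1 (1.16). On the other side stood Gpd2 (-0.47), Ldhb (-0.33), Slc16a3 (-0.30), Pdk3 (-0.28), Tkt (-0.28) and Pgam1 (-0.23). In the same comparison 10 of 12 proliferation genes fell and 0 rose, with the sums given above, and their part in these values was not tested.

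**Figure D5:**
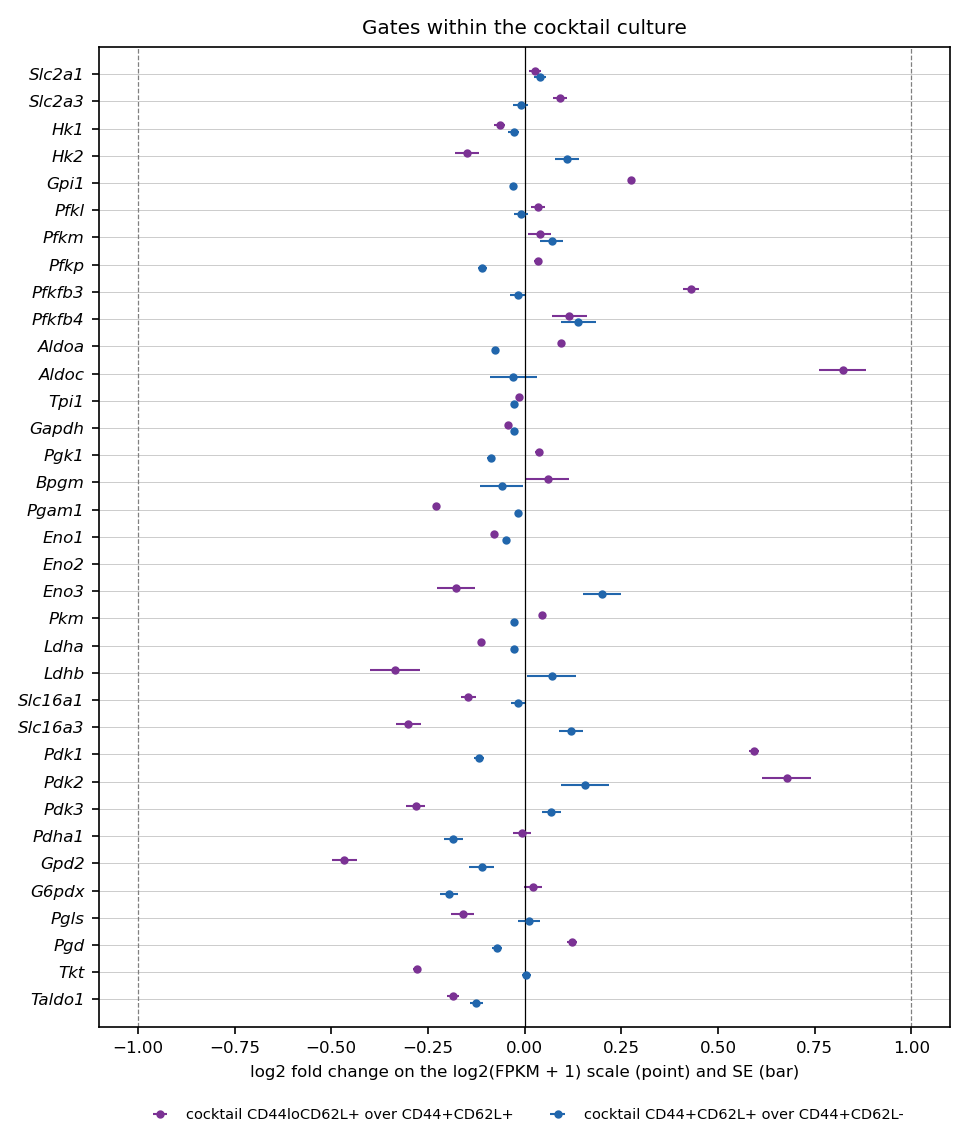
Log2 fold change on the log2(FPKM + 1) scale (points) with its standard error (bars) between neighbouring gates of the cocktail culture, for the 34 members tested. No point reaches the 2-fold minimum (dashed lines); Aldoc, Pdk2 and Pdk1 lie farthest to the right in CD44loCD62L+ over CD44+CD62L+ cells.

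The promoters of the members with the widest differences are shown because the factors that act on this pathway are known to read short motifs there: hypoxia-inducible factors bind ACGTG or GCGTG, and Myc and carbohydrate-response factors bind E-boxes such as CACGTG. The window ran from 250 bases before to 50 bases after a RefSeq transcription start on GRCm38, and motifs were searched on both strands; every CACGTG also contains ACGTG. Of 50 such windows of 34 members (Slc2a3 had no entry), 10% held CACGTG, 42.0% ACGTG and 56.0% GCGTG, against 7.15%, 19.6% and 32.4% of all 32851 windows. A match is a description of these letters and not a binding site. The Slc16a3 window (chr11:120948817-120949116, plus strand) held 2 ACGTG matches, and the Tpi1 window (chr6:124814109-124814408, minus strand) held none of the 3 motifs. The Ldhb window (chr6:142507908-142508207, minus strand) held 1 GCGTG. Gpd2 has 2 windows on the plus strand, chr2:57237428-57237727 with none of the motifs and chr2:57238132-57238431 with 1 ACGTG. Capitals mark the matches as read on the gene's strand, 5′ to 3′.
Slc16a3: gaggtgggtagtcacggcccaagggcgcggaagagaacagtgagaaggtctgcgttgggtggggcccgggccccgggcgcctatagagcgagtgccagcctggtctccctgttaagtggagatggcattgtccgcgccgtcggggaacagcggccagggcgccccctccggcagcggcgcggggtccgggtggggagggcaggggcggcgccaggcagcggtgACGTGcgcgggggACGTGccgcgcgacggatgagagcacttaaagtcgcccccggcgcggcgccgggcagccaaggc
Tpi1: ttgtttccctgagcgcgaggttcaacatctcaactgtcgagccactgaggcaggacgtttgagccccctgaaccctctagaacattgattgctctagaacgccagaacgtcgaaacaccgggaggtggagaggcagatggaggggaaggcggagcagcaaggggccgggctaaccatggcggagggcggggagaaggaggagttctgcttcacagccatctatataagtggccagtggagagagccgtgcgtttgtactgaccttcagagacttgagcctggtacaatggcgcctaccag
Ldhb: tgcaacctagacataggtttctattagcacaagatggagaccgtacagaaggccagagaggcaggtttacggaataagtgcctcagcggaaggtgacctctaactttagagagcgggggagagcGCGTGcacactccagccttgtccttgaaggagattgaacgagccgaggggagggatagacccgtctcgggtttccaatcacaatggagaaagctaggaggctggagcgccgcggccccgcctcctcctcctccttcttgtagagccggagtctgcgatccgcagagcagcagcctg
Gpd2 upstream window: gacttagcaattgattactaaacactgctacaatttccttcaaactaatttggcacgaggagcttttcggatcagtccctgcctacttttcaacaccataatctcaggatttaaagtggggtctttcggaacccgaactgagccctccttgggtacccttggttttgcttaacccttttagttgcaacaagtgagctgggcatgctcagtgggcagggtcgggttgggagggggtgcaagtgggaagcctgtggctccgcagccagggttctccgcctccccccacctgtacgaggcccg
Gpd2 downstream window: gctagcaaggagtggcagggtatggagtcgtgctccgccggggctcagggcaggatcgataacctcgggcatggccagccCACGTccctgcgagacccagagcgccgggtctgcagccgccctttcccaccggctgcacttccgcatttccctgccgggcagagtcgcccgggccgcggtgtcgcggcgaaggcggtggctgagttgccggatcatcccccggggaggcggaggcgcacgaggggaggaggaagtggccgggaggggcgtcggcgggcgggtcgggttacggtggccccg

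Outside the 35 members, 2 of 45 other genes of glycolysis, pyruvate handling and the pentose phosphate pathway (30 tested) rose in the cocktail CD44+CD62L- cells relative to the IL-2 cells and 0 fell, with a list median log2 fold change of -0.21. Of all genes tested 4.64% rose and 3.20% fell. Slc2a6, a lysosomal sugar transporter, had 7.41, 6.49 and 6.27 FPKM in the cocktail CD44+CD62L- libraries, against 0.194, 0.140 and 0.0886 FPKM in the IL-2 libraries (limma, log2 fold change 2.76 ± 0.0619, adjusted p = 7.70e-14). Pck2, mitochondrial phosphoenolpyruvate carboxykinase, averaged 16.6 ± 0.965 FPKM in the cocktail CD44+CD62L- libraries and 7.66 ± 0.515 FPKM in the IL-2 libraries. Over naive cells 4, 5, 4 and 6 of the 30 tested rose and 1, 2, 3 and 2 fell in the cocktail CD44loCD62L+, CD44+CD62L+, CD44+CD62L- and IL-2 cells. Of all genes 11.6%, 14.4%, 13.9% and 17.6% rose in the same order, so the list's risers were near the background. The shares of all genes that fell were 6.11%, 8.44%, 8.59% and 13.7%. In all 4 populations the called genes of the list included a rise of Pgm2, a sugar phosphate mutase whose symbol older and newer annotations give to different genes, of Bsg, the chaperone of the lactate transporters, and of Pck2, and a fall of Gpd1l, a glycerol phosphate dehydrogenase-like gene. Between the cocktail gates 0 of the 45 were called.

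Of 10 regulators of glucose sensing and glycolysis (9 tested), 2 rose and 0 fell in the cocktail CD44+CD62L- cells relative to the IL-2 cells. Of all genes tested 4.64% rose and 3.20% fell in this comparison. Txnip, which is induced by glucose 6-phosphate and restrains glucose uptake, had 249.6, 254 and 252 FPKM in the cocktail CD44+CD62L- libraries, against 75.3, 76.3 and 76.8 FPKM in the IL-2 libraries (limma, log2 fold change 1.71 ± 0.0114, adjusted p = 6.47e-19). Its paralogue Arrdc4, controlled by the same glucose-sensing factors, averaged 3.50 ± 0.0394 FPKM in the cocktail CD44+CD62L- libraries and 0.0927 ± 0.0749 FPKM in the IL-2 libraries. In naive libraries Txnip stood at 348 ± 2.60 FPKM and Arrdc4 at 1.00 ± 0.190 FPKM. Hif1a, the oxygen-sensing subunit of the hypoxia-inducible factor, averaged 111 ± 0.241, 121 ± 0.995 and 118 ± 1.62 FPKM in the cocktail CD44loCD62L+, CD44+CD62L+ and CD44+CD62L- libraries, 64.2 ± 0.438 FPKM in the IL-2 libraries and 28.9 ± 0.233 FPKM in the naive libraries, and was called over naive cells in all 4 populations. Over naive cells 3, 1, 2 and 2 of the 9 regulators tested rose and 0, 0, 0 and 2 fell, in the same order with IL-2 last. The shares of all genes were 11.6%, 14.4%, 13.9% and 17.6% for rises and 6.11%, 8.44%, 8.59% and 13.7% for falls. Of the 9 mannose and hexosamine genes 0 rose and 0 fell between the cultures, with 8 lower by the adjusted p alone (43.7% of all genes). Of 8 other NADPH-forming enzymes (6 tested) 0 rose and 1 fell, namely Mthfd1, a cytosolic folate enzyme, at 21.7 ± 0.165 FPKM in the cocktail CD44+CD62L- libraries and 45.9 ± 0.492 FPKM in the IL-2 libraries.

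Markers of other cells also differed between the cultures. At this gate 4.64% of all genes tested rose and 3.20% fell in the cocktail cells relative to the IL-2 cells. Of 16 dendritic cell and macrophage markers (13 tested) 5 rose and 1 fell in the cocktail CD44+CD62L- cells relative to the IL-2 cells, and their sum was 294 to 302 FPKM in the cocktail CD44+CD62L- libraries, 178 to 182 FPKM in the IL-2 libraries and 332 to 336 FPKM in the naive libraries. Most of the sum was Ctss, a lysosomal protease that rose, and Cst3, which was not called, at 146 ± 2.28 FPKM in the cocktail CD44+CD62L- libraries, against 129 ± 1.06 FPKM in the IL-2 libraries. Lyz2, a lysozyme of myeloid cells, rose to 21.3 ± 0.710 FPKM in the cocktail CD44+CD62L- libraries, against 0.427 ± 0.0584 FPKM in the IL-2 libraries, and H2-Ab1, Cd74 and H2-Aa also rose. Fcer1g fell to 3.35 ± 0.912 FPKM in the cocktail CD44+CD62L- libraries, against 15.9 ± 1.23 FPKM in the IL-2 libraries. The other cocktail gates had marker sums of 271 to 282 FPKM (CD44loCD62L+, where Flt3 was listed at 0) and 268 to 280.4 FPKM (CD44+CD62L+). Of 4 NK cell markers (2 tested), Eomes, which CD8 T cells also express, rose to 28.1 ± 0.172 FPKM in the cocktail CD44+CD62L- libraries, against 10.3 ± 0.396 FPKM in the IL-2 libraries, while Klrb1c fell to 0.271 ± 0.0532 FPKM in the cocktail CD44+CD62L- libraries, against 1.77 ± 0.0816 FPKM in the IL-2 libraries, and Ncr1 and Klra8 averaged under 0.1 FPKM in both. Of 4 CD4 T cell markers (3 tested), Cd40lg rose to 1.84 ± 0.154 FPKM in the cocktail CD44+CD62L- libraries, against 0.413 ± 0.0736 FPKM in the IL-2 libraries, and Foxp3 fell to 0.0772 ± 0.00570 FPKM in the cocktail CD44+CD62L- libraries, against 1.51 ± 0.151 FPKM in the IL-2 libraries. Zbtb7b, most of the list's summed FPKM, was not called, at a log2 fold change of -0.63, and Cd4 itself averaged 0.0112 FPKM in the cocktail CD44+CD62L- libraries and 0.0197 FPKM in the IL-2 libraries. Of the 5 B cell markers Cd79b fell, to 1.96 ± 0.163 FPKM in the cocktail CD44+CD62L- libraries, against 6.36 ± 0.492 FPKM in the IL-2 libraries, and no other was called. Of 7 erythroid, platelet and neutrophil markers (3 tested), S100a8, S100a9 and Pf4 rose, and the list summed to 3.92 to 4.77 FPKM in the cocktail CD44+CD62L- libraries, 0.0894 to 0.273 FPKM in the IL-2 libraries and 24.4 to 28.4 FPKM in the naive libraries. The NK cell list summed to 28.2 to 28.5 FPKM in the cocktail CD44+CD62L- libraries, 11.7 to 12.6 FPKM in the IL-2 libraries and 19.6 to 20.3 FPKM in the naive libraries. The CD4 T cell list summed to 11.0 to 11.5 FPKM in the cocktail CD44+CD62L- libraries, 16.5 to 17.4 FPKM in the IL-2 libraries and 7.74 to 9.41 FPKM in the naive libraries, and the B cell list to 2.05 to 2.32 FPKM in the cocktail CD44+CD62L- libraries, 5.93 to 6.75 FPKM in the IL-2 libraries and 39.0 to 40.4 FPKM in the naive libraries. The part of these cells in the members' differences was not tested.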

How the data were processed

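The authors deposited 1 table of normalized FPKM with 1 column per library. Per the submitters' processing notes, reads were processed with TopHat2 2.0.9 and Cuffdiff 2.1.1 on mm10; of the annotation, settings and use of strand nothing is given in the sources used here. Ratios of low values of a gene to its lowest value above 0 were pooled over all 15 libraries. Of 35306 such ratios 19.8% lay within 0.05 of a whole number, 10% by chance. That lowest value need not be 1 read, so the check cannot decide whether low values are whole multiples of 1 read. Depth was therefore not estimated, and no count test was run on normalized FPKM. Values were analysed as log2(FPKM + 1) with limma 3.58.1 in R 4.3.3 (trended eBayes, all 15 libraries, group as the only term, tested on simulated data), over the 11242 genes averaging 1 FPKM or more in some group, with Benjamini-Hochberg adjustment over all of them. Called means an adjusted p under 0.05 and a fold change of at least 2. Shares of forms were compared by exact permutation. All members are accounted for; values per library are given for those called between the cultures and those with the largest changes over naive cells. Members and lists were chosen with earlier results of these data known. Sequences are from RefSeq and gene positions from GENCODE M21, both GRCm38. The alternatives were other pseudocounts, filters, scalings, fits and thresholds, a replicate block and leaving out each library.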

Additional observations from a re-analysis of the deposited data

How the results depend on the processing

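No member changed direction as a called result in any alternative run. Between the cultures at CD44+CD62L-, 5 members were called, 2 with a pseudocount of 5 (Ldhb 0.80, Pfkfb3 0.80 and Gpd2 -0.97 missed the fold minimum), 11 with a 1.5-fold minimum and 31 by the adjusted p alone. For CD44+CD62L+ over CD44+CD62L- cocktail cells the adjusted p alone gave 20 in place of 0. For CD44loCD62L+ over CD44+CD62L+ cells a pseudocount of 0.1 gave 1, a 1.5-fold minimum 3 and the adjusted p alone 27 in place of 0. Over naive cells the adjusted p alone gave 33 (cocktail CD44loCD62L+), 34 (CD44+CD62L+), 32 (CD44+CD62L-) and 32 (IL-2), in place of 20, 20, 20 and 21. Over all genes the count of calls between the cultures was 882, and 1393 with a pseudocount of 0.1, 379 with 5, 2467 with a 1.5-fold minimum and 9479 by the adjusted p alone. In the same order, the counts were 13, 41, 7, 71 and 5432 for CD44+CD62L+ over CD44+CD62L- cocktail cells, and 301, 495, 178, 974 and 8251 for CD44loCD62L+ over CD44+CD62L+ cells. Over naive cells they were 1993, and 1014 with 5, 4040 with a 1.5-fold minimum and 9956 by the adjusted p alone for cocktail CD44loCD62L+ cells, 2564, 1412, 4888 and 10198 for CD44+CD62L+, 2530, 1393, 4913 and 10192 for CD44+CD62L-, and 3519, 2038, 6020 and 10321 for IL-2 cells. With the pseudocount of 5, 14 calls of members were lost over the 7 comparisons. A pseudocount of 0.1 added the calls of Pfkfb4 over naive cells in cocktail CD44+CD62L- and IL-2 cells, of Pgd in IL-2 cells and of Pdk2 in CD44loCD62L+ over CD44+CD62L+ cells. Quantile normalization ended the calls of Gpi1 in IL-2 cells (0.81) and Pfkm in cocktail CD44+CD62L- cells over naive cells (0.96), and it moved the median of all genes to -0.10 for cocktail CD44+CD62L- and -0.11 for CD44+CD62L+ cells over naive cells. Median-ratio scaling called 19 members higher in IL-2 over naive cells, in place of 18. Leaving out each library gave 5 members between the cultures, 0 between gates, 20 for each cocktail population over naive cells and 21 to 22 for IL-2 over naive cells, the difference being Pgd. Replicate numbers did not pair the libraries: 8 of 30 same-numbered pairs correlated above 0.1 and 11 of 30 best with their own number, and the fit with a replicate block called 5 members between the cultures and the same number as without it in every other comparison. The causes of these shifts were not tested. Depth was not estimated, so precision rests on the spread of technical replicates.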

Other observations

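Eno2, the untested member, had 0.980, 1.03 and 0.918 FPKM in the cocktail CD44loCD62L+ libraries, 0.430, 0.539 and 0.454 FPKM in the CD44+CD62L+ libraries and 0.348, 0.397 and 0.2396 FPKM in the CD44+CD62L- libraries. Its IL-2 libraries had 0.0424, 0.0558 and 0.0705 FPKM, against 0.1001, 0.183 and 0.199 FPKM in naive libraries. In naive cells Tpi1, at 28.9 ± 0.355 FPKM, stood below Gapdh, the next enzyme of the chain, at 454 ± 1.92 FPKM. It also stood below Pgk1, which follows Gapdh, at 118 ± 1.76 FPKM. In IL-2 cells Tpi1 reached 637 ± 2.05 FPKM, beside 3172 ± 11.5 FPKM for Gapdh and 1094 ± 1.08 FPKM for Pgk1.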
